A study of Homo sapiens with 480 samples.

Results

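J-Lat A2 cells treated with PMA were divided by whether their library held a read of IL2RA, which encodes CD25, the alpha subunit of the receptor for interleukin-2. Of 81 wells labelled as J-Lat A2 with PMA, 79 were kept, each with 500 or more detected genes and a total no lower than 0.1 of its plate's median. A rounded IL2RA count of 1 or more put 40 cells in the positive class, and a count of 0 put 39 cells in the negative class, out of 410 kept cells and 480 wells in the whole series. The classes were chosen by the IL2RA counts of these same cells, so IL2RA values are described here without a test.

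J-Lat A2 is a clonal derivative of the human T cell leukaemia line Jurkat, with a latent HIV minivirus in its genome. Cells of both lines were held for 24 h with 0.1% DMSO, with 1 uM SAHA (a histone deacetylase inhibitor) or with 1 ug/mL of PMA, a phorbol ester and diacylglycerol mimic that switches on protein kinase C, and were sorted into plates with each well meant to hold 1 cell, which was not tested. PMA was given on 3 plates, P2769, P2770 and P2771, where the positive and negative classes held 14 and 12, 10 and 17, and 16 and 10 cells. J-Lat A2 cells with DMSO and Jurkat cells with PMA or DMSO, none of them divided further except Jurkat with PMA, came from the same plates and serve as reference. Separate cultures are not named for the plates, so p-values measure only how the class difference varied between plates, which may be technical.

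The interleukin-2 receptor joins the alpha chain to the beta chain IL2RB and the common gamma chain IL2RG. The alpha chain raises the affinity for interleukin-2, and the other chains signal through JAK1, JAK3 and STAT5. Resting T cells carry little of the alpha chain, and its gene is switched on by T cell receptor signals, of which PMA supplies the protein kinase C branch, through NF-kB, AP-1, SRF and other factors at its promoter and enhancers.

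The bases before the start of IL2RA are shown because every class in the comparison rests on this gene. They come from RefSeq (GRCh38.p14, chr10:6062368-6062617, minus strand) and are the 250 bases upstream of the annotated start, 5′ to 3′. Capitals mark the core of a kB element (GGG, any 5 bases, then CC), searched on either strand, and 2 matches on opposite strands overlap there.
IL2RA: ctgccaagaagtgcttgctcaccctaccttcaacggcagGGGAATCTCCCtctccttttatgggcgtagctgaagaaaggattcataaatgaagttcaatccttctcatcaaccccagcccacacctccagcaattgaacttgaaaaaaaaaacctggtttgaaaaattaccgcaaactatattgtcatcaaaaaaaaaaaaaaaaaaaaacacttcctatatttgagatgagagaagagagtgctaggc
Letters of this pattern were present on either strand in 54.4% of 35116 RefSeq promoters of this length. A match describes the letters and not the binding of a factor.

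IL2RA reads were found in 50.63% of the PMA-treated J-Lat A2 cells (40 of 79, 95% Clopper-Pearson interval 39.14 to 62.08%). The share was 53.85% on P2769, 37.04% on P2770 and 61.54% on P2771. With DMSO on the same plates, 0 of 35 J-Lat A2 cells (which allows a share of up to 8.571%) and 0 of 18 Jurkat cells (up to 16.67%) had a read. With the DMSO cells of the other plates, which held no PMA cells, added, the counts were 0 of 94 (up to 3.191%) and 0 of 30 (up to 10.0%). PMA-treated Jurkat cells were positive in 5 of 36 cases (13.89%, 4.668 to 29.5%), and the share was 8.333%, 16.67% and 16.67% on the 3 plates. Each limit for a count of 0 is 3 divided by the number of cells, which lies below the upper end of the 95% Clopper-Pearson interval. For DMSO cells of the same plates that upper end was 10.0% (J-Lat A2) and 18.53% (Jurkat). With all plates it was 3.848% and 11.57%. Intervals and limits cover counting error over cells only, with each cell taken as an independent draw, and not the spread between plates. The reads also carry no molecular identifier.

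Among the 40 positive cells the IL2RA level ran from 2.55 to 822 CPM (counts scaled to a common total per cell), with a median of 178.3. The median was 218 CPM on P2769, 92.02 CPM on P2770 and 153.05 CPM on P2771, so the plate with the smallest positive share also had the lowest median. The 5 positive Jurkat cells ran from 89.02 to 376 CPM, inside the range of the J-Lat A2 cells. At the threshold, the lowest positive cells held 1, 2, 3, 6 and 6 counts and the next held 10 and 14, while all 39 negative cells stood at exactly 0 before rounding. Thinning each cell to 100000 counts left out 1 cell of each class and left 37 of 77 cells positive (48.05%), and 2 positive cells lost every IL2RA count.

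**Figure D1:**
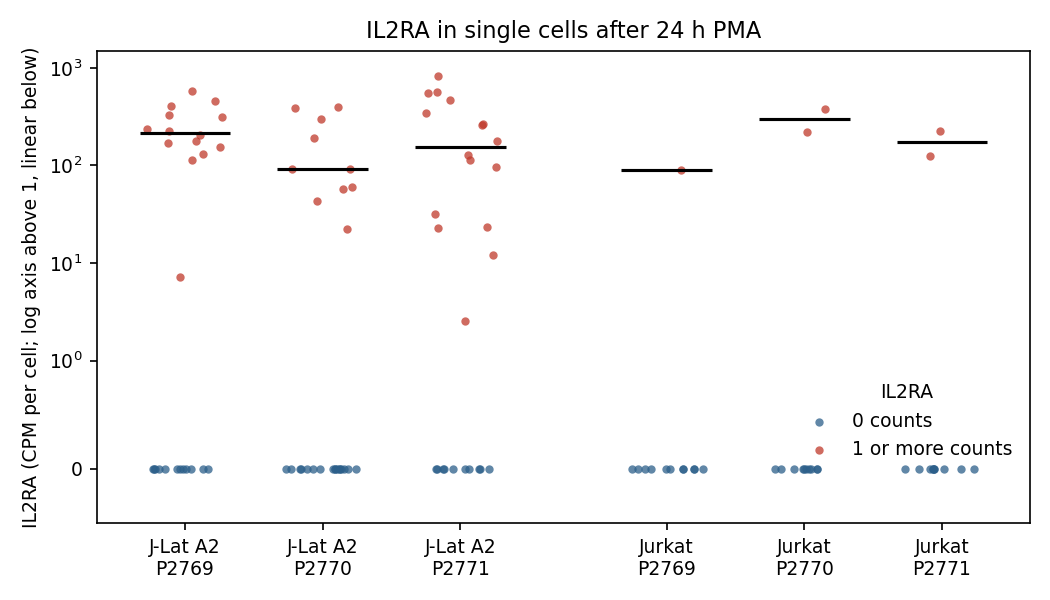
IL2RA level (CPM, log axis above 1 and linear below) of each PMA-treated cell by line and plate; red points are cells with 1 or more counts, blue points cells with 0, and the bar is the median of the positive cells. The 40 positive J-Lat A2 cells spread from 2.55 to 822 CPM, and the 5 positive Jurkat cells lie between 89.02 and 376 CPM.

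The classes had similar depth but not the same number of genes. Median totals of the positive and negative cells were 483488 and 480635 counts on P2769, 512871 and 563176 on P2770 and 469408 and 381228 on P2771 (exact sign-flip permutation test over the 3 plates, two-sided p = 0.75; the smallest p this design allows is 0.25). Positive cells had more genes detected on each plate, with medians of 4511 against 3574, 4680 against 4365 and 5124 against 4535 (exact p = 0.25). At 100000 counts per cell the gap remained, with 4177 against 3384, 4333 against 3876 and 4731 against 4250 genes. The mitochondrial share of counts was lower in positive cells on each plate, at 4.571% against 5.015%, 3.713% against 4.002% and 3.318% against 3.633% (exact p = 0.25). The part of either measure in the gene results below was not tested beyond the thinned fits.

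HIV minivirus RNA, counted as the feature HIVmini, was present in both classes at shares whose intervals overlap. A count was found in 27 of 40 positive cells (67.5%, 50.87 to 81.43%) and in 28 of 39 negative cells (71.79%, 55.13 to 85%). By plate the shares were 57.14% against 66.67%, 70.0% against 76.47% and 75% against 70.0%, and the difference of the plate means was not separable from the spread between plates (exact permutation test, two-sided p = 0.5). The overall difference, positive minus negative, was -4.29 percentage points. It was -9.17 points when a cell needed more than 100 CPM of HIVmini, -9.51 after thinning and -8.93 when a positive cell needed 10 IL2RA counts. Under each of these the positive class was lower on all 3 plates (exact permutation test, p = 0.25, the smallest this design allows). The summed level was 6828, 2463 and 5364 CPM in the positive sums of P2769, P2770 and P2771 and 6169.8, 5672 and 9258 CPM in the negative sums. The positive sum was thus the higher of the pair on P2769 and the lower on the other plates, and the fitted log2 difference was -0.62 ± 0.24 (SE; edgeR, adjusted p = 0.997). It was -0.98 without P2769 (adjusted p = 0.569), -0.305 without P2770 and -1.03 with only wells of at least 0.5 of the plate median, so its size rests on which plates and wells are used.

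Host genes were compared on 6 sums, the counts of each class on each plate, in edgeR's quasi-likelihood test with plate as a block. The sums held 4217364 to 9105113 counts. Levels are CPM after TMM scaling and differences are log2, positive minus negative class, with the standard error (SE). No gene passed: 0 of 9393 features (0.0%) had an adjusted p under 0.05, and the lowest adjusted p was 0.651. At an unadjusted p under 0.05 there were 272 features (2.9%), and of all features 1.76% were higher and 1.14% lower in positive cells at that p. DESeq2 on the same sums called 0.801% of 12856 features, 76 higher (0.591%) and 27 lower (0.21%). Of the 12856 features, 2991 had no adjusted p in DESeq2 and could not be called. With equal weight per cell, limma called 0 of 9393 and had 615 (6.55%) at an unadjusted p under 0.05. Of the DESeq2 calls, 24 rested on fewer than 10 cells and 82 had the same direction on each plate. The values that follow are therefore descriptions of these cells, and no single gene is called.

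The clearest shared direction was in the genes of the G2 and M phases of the cell cycle, which build the mitotic spindle, condense chromosomes and drive the exit from mitosis. All 45 members of the list were tested and 45 of 45 had a log2 difference above 0, against 52% of all features. The median difference was 1.36, against 0.0346 for all features tested, and 31 members had a log2 difference of at least 1 (16.5% of all features). At an unadjusted p under 0.05 there were 19 members (42.2%, against 1.76% of all features), and 22 were higher on each plate (48.9%, against 13.3%). None passed in edgeR, while DESeq2 called 14 of the 45, all higher, and called 0.591% of all 12856 features higher. The members were read in the same cells and can rise and fall together, so the counts of members are not independent observations. This list is 1 of 24 that were examined, and it is described first because of its values.

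The plates did not contribute alike. The median log2 difference of the 45 genes was 2.76 on P2769, 0.117 on P2770 and 1.07 on P2771, and 43, 26 and 41 of the 45 were higher in positive cells. Without P2769 the fitted median was 0.69 with 40 of 45 genes above 0, and without P2770 it was 1.92. Thinning to 100000 counts gave 1.26 with 45 of 45 above 0, and equal weight per cell gave 1.69. For all 45 genes the share of cells with a count was higher in the positive class. No share of all features is given beside this count, and positive cells had more genes detected in general (median 4725 against 4225).

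**Figure D2:**
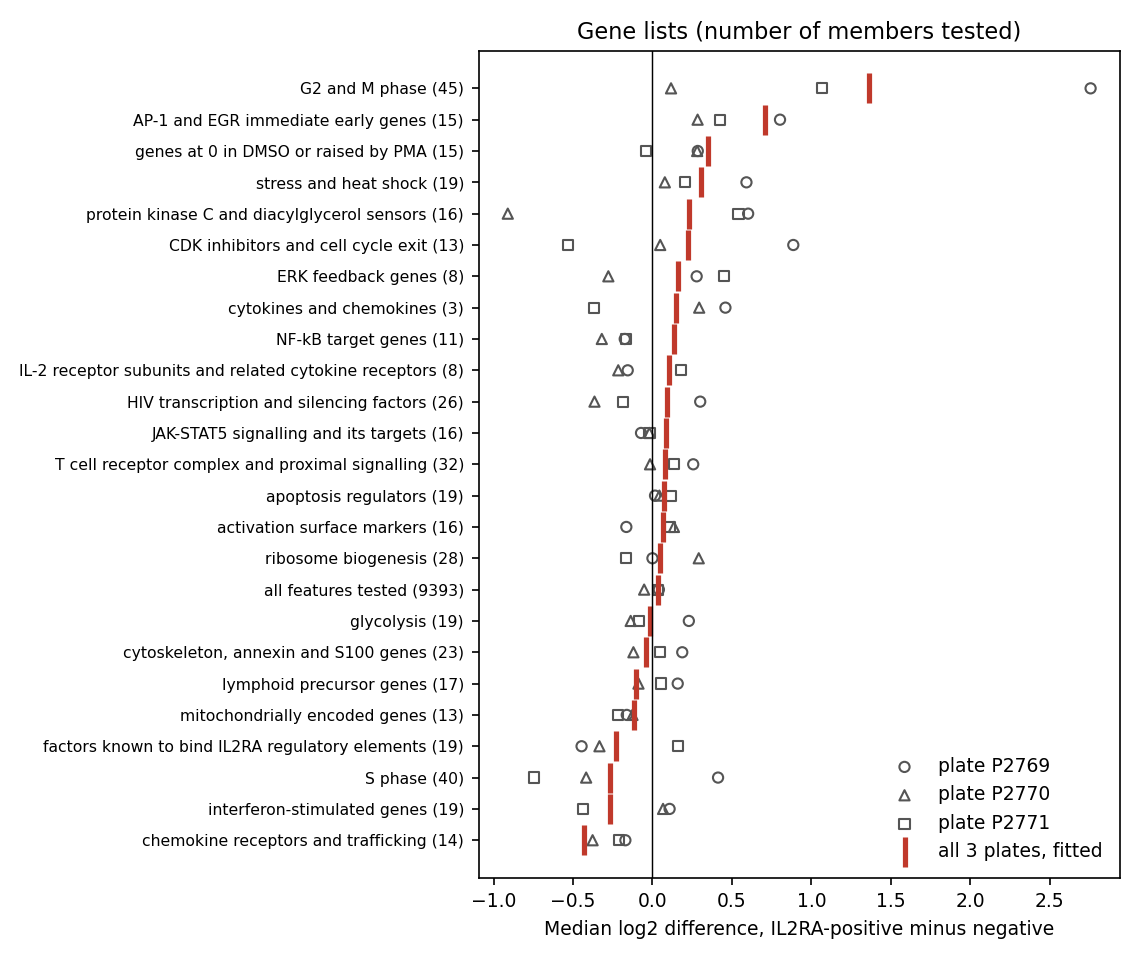
Median log2 difference between IL2RA-positive and IL2RA-negative J-Lat A2 cells for each gene list with 3 or more tested members, where red bars come from the fit over 3 plates and open symbols from each plate alone. The G2 and M phase list lies at 1.36 with plates at 2.76, 0.117 and 1.07, and all features tested lie at 0.0346.

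CDC20, the activator of the anaphase-promoting complex, stood at 472, 176.8 and 374 CPM in the positive sums of P2769, P2770 and P2771. The negative sums were 50.2, 56.9 and 80.5 CPM, so the classes did not overlap, and sums that are apart in this direction were found for 4.99% of all features. CDC20, like DLGAP5, NUF2, CENPF and BUB1 below, was named by its low p in these same sums, which favours sums that are apart. Its log2 difference was 2.36 ± 0.36 (SE; edgeR, adjusted p = 0.997), a 5.12-fold difference, and 26 positive against 15 negative cells held a count. With DMSO, J-Lat A2 cells of the same plates had 577, 339 and 369 CPM, nearer to the positive than to the negative class.

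DLGAP5, which stabilises spindle microtubules, had 432, 135.3 and 266 CPM in positive sums against 39.2, 41.2 and 61.3 CPM in negative sums. The log2 difference was 2.42 ± 0.40 (edgeR, adjusted p = 0.997), and 22 positive and 9 negative cells had a count. NUF2, a subunit of the NDC80 complex of the kinetochore, had 285, 142.4 and 189.4 CPM against 57.4, 50.1 and 22.5 CPM. Every positive sum of these genes lay above every negative sum, and P2770 gave the lowest positive sum of each.

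CENPF, a kinetochore protein, had 437, 145.2 and 252 CPM in positive and 112.2, 31.8 and 118.8 CPM in negative sums, a log2 difference of 1.75 ± 0.30. BUB1, a kinase of the spindle checkpoint, had 369.6, 245 and 439.9 CPM against 70.8, 114.1 and 205 CPM, a difference of 1.52 ± 0.32, and 2.44 with equal weight per cell. Both sets of sums were apart, with adjusted p = 0.997 in edgeR. PLK1, a kinase that drives entry into and passage through mitosis, was picked after its values were seen: 24 positive and 8 negative cells had a count, and the sums were 294, 176.8 and 422 against 6.397, 38.8 and 100.6 CPM. The chromatin protein HMGB2, the list's most abundant member, had 1534, 723.5 and 1141 CPM against 367, 648 and 498 CPM (log2 1.14 ± 0.35). The second by level, the checkpoint protein BUB3, had overlapping sums (1001, 599.6 and 947 against 695, 606 and 418 CPM).

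Not all of the list was apart. The cyclin-dependent kinase CDK1, chosen after its values were seen, had 1010.3, 209.7 and 735 CPM in positive and 122.9, 441 and 592 CPM in negative sums, so P2770 ran the other way (log2 0.69 ± 0.76). Across the list the log2 differences ran from 0.273 to 6.03, the highest being that of CENPA, which was counted in only 10 positive and 2 negative cells. In all, 15 of 45 members had sums that did not overlap, all of them higher, and 4.99% of all features had such sums.

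Summed over the 45 genes, the level per cell showed that both classes were mixed. Positive cells ran from 333 to 36997 CPM with a median of 10123, and negative cells from 664 to 39638 CPM with a median of 2656. The plate medians were 11994, 2400.5 and 16927 CPM for positive cells and 1345, 3145 and 4018 CPM for negative cells, so the order of the classes was turned on P2770. In DMSO-treated J-Lat A2 cells of the same plates the median was 11505 CPM and the lowest of 35 cells had 3057 CPM. Below that lowest DMSO cell lay 13 of 40 positive cells (32.5%) and 22 of 39 negative cells (56.4%): 2 of 14 against 9 of 12 on P2769, 6 of 10 against 8 of 17 on P2770 and 5 of 16 against 5 of 10 on P2771. The mean level with DMSO was above the mean of the negative sums for 42 of the 45 genes. It was above the mean of the positive sums for 18, and no share of all features is given for either count. The number of genes detected moved with this sum (Spearman rho 0.461 over 79 cells, which share plates and depth), and its part in the result was not tested.

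**Figure D3:**
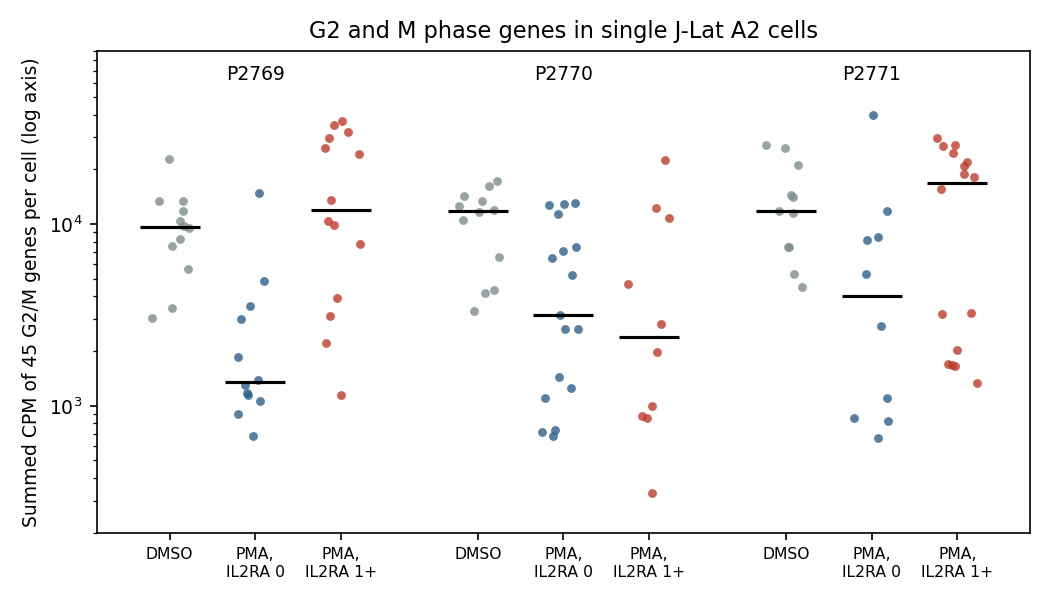
Summed level of 45 G2 and M phase genes (CPM, log axis) in single J-Lat A2 cells by plate, for DMSO (grey), PMA with an IL2RA count of 0 (blue) and PMA with 1 or more (red); bars are medians. The positive median exceeds the negative one on P2769 (11994 against 1345) and P2771 (16927 against 4018), but not on P2770 (2400.5 against 3145).

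Promoters of G2 and M phase genes are known to carry CHR elements (TTTGAA or TTTAAA), bound by the DREAM and MuvB complexes, and CCAAT boxes, bound by NF-Y. The 250 bases before the start are shown for 3 of the 5 listed genes among the 10 higher genes named below, the 3 that hold both kinds of match. The others were NUF2, with no match of either kind, and BUB1, with 0 CHR and 2 CCAAT matches. Capitals mark CHR letters and CCAAT on either strand (so TTCAAA is TTTGAA on the other strand, and ATTGG is CCAAT). From RefSeq (GRCh38.p14), CDC20 is at chr1:43358731-43358980, plus strand, DLGAP5 at chr14:55191586-55191835, minus strand and CENPF at chr1:214602945-214603194, plus strand.
CDC20: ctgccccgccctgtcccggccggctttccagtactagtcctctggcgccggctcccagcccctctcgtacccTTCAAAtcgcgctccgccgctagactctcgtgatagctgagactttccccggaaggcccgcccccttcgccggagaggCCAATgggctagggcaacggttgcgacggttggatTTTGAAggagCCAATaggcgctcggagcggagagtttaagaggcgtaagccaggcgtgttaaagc
DLGAP5: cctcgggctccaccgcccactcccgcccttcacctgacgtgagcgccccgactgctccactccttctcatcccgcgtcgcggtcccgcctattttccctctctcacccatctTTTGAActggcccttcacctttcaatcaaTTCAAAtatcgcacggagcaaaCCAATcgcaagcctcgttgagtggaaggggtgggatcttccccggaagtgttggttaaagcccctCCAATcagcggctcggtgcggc
CENPF: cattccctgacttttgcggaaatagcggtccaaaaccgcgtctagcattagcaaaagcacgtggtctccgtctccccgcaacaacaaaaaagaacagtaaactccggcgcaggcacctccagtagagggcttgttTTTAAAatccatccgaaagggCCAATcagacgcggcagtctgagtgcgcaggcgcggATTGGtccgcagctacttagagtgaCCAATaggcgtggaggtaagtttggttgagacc
CDC20 and DLGAP5 each held 2 CHR and 2 CCAAT matches, and CENPF held 1 and 3. Among the 38 listed genes with a RefSeq promoter, 26 (68.4%) had a CHR match, 27 (71.1%) a CCAAT match and 22 (57.9%) both. Of all 35116 promoters, 21.9% had the first, 32% the second and 7.64% both. These promoters hold the letters regardless of the IL2RA class, and the search says nothing about which factor was bound.

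By the naming rule, 10 genes higher and 9 lower in positive cells are given by their unadjusted p, since none passed the test. Of the 10 higher genes, 5 belong to the G2 and M list (CDC20, DLGAP5, NUF2, CENPF and BUB1). The lowest p of all (unadjusted 6.93e-05, adjusted 0.651, edgeR) was that of ARL6IP1, a membrane-shaping protein of the endoplasmic reticulum (GRCh38 chr16:18791667-18801678). Its positive sums were 714.7, 445 and 783 CPM and its negative sums 184.3, 165.3 and 247 CPM, with a log2 difference of 1.68 ± 0.19. A count was found in 37 positive and 36 negative cells. DMSO-treated cells had 206, 420.4 and 618 CPM, between and across the classes.

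ZNF443, a zinc finger gene, had 119.05, 151.4 and 179.01 CPM against 26.9, 32.1 and 47.5 CPM (log2 2.10 ± 0.33). It differed from the mitotic genes in having its 3 positive sums close together, also on P2770. The vesicle SNARE VAMP7 had 208, 167.99 and 147.2 CPM against 49.8, 61.3 and 59.4 CPM, with a count in 26 positive and 11 negative cells (log2 1.61, and 3.25 with equal weight per cell). CACYBP, a binding partner of calcyclin, had 1227, 1047 and 1047 CPM against 815, 611 and 568 CPM. The thymocyte membrane protein ITM2A, counted in every cell, had 3561, 3922 and 3060.4 CPM against 2724, 2519 and 2178 CPM, and 917, 989.9 and 915 CPM with DMSO. ITM2A was thus above the DMSO level in both classes and furthest above it in the positive class, with a log2 difference of 0.51 ± 0.11 (edgeR, adjusted p = 0.997), which was 0.18 with equal weight per cell. All 10 higher genes kept their direction after thinning, which says nothing about stability because they were chosen by their p in the same cells.

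**Figure D4:**
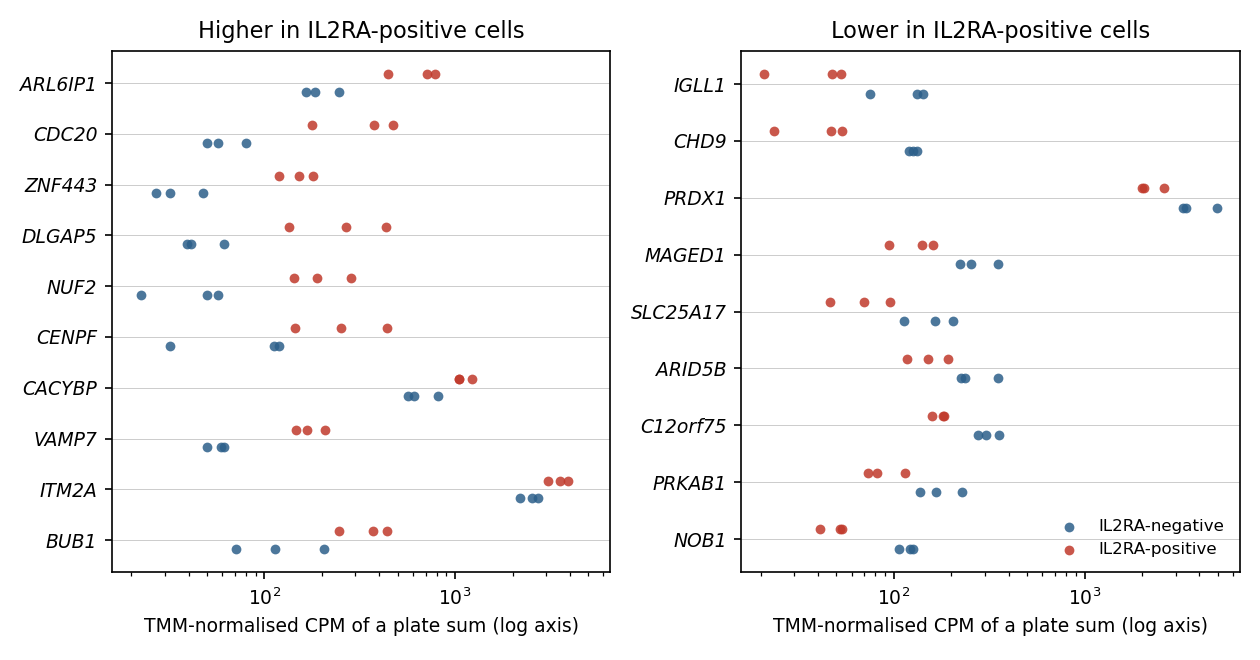
Level of 10 genes higher and 9 genes lower in positive cells, named by their unadjusted p (TMM-normalised CPM, log axis); each point is the sum of 1 plate, red for IL2RA-positive and blue for IL2RA-negative J-Lat A2 cells. For all 19 genes the 3 red and 3 blue points do not overlap, which their choice by p and by direction on each plate favours. None of the 19 passed the adjusted test.

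The 9 lower genes had unadjusted p values from 0.00340 to 0.00907 and an adjusted p of 0.997. Sums that were apart in this direction were found for 4.6% of all features. The 9 genes were chosen by their p and for 1 direction on each plate, which favours such sums. PRDX1, a peroxiredoxin that breaks down hydrogen peroxide (GRCh38 chr1:45511036-45523047), was counted in every cell. It had 2046, 2607 and 1996 CPM in positive sums and 4956, 3267 and 3391 CPM in negative sums, a log2 difference of -0.79 ± 0.18, and 1168, 1028 and 932 CPM with DMSO. Both classes therefore stood above DMSO, and the negative class stood higher. Equal weight per cell gave PRDX1 the lowest adjusted p of that limma fit, 0.075.

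IGLL1, the surrogate light chain gene of lymphoid precursors, had 47.5, 20.8 and 52.6 CPM against 132.2, 75.1 and 142.9 CPM, and far more with DMSO (1572, 1224 and 639 CPM). The positive class was therefore the further from DMSO for IGLL1.

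The chromatin remodeller CHD9 had 53.2, 23.6 and 46.97 CPM against 125.99, 119.5 and 132.6 CPM. ARID5B, a DNA-binding cofactor of lymphoid leukaemia, had 193.1, 116.7 and 151.03 CPM against 349.7, 226 and 235 CPM, and less with DMSO (64.3, 59.9 and 43.3 CPM). The others were MAGED1 (log2 -1.08), the peroxisomal carrier SLC25A17 (-1.20), C12orf75 (-0.84, and -0.47 with equal weight per cell), the AMP-activated kinase subunit PRKAB1 (-0.97) and the ribosome assembly factor NOB1 (-1.27). All 9 kept their direction after thinning, which says nothing about stability because they were chosen by their p in the same cells. DESeq2 called 3 of the 9, IGLL1, CHD9 and PRDX1.

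Of the other chains of the interleukin-2 receptor only IL2RG had counts to compare between the classes. IL2RG had 647, 671 and 931 CPM in positive and 733, 770.3 and 828 CPM in negative sums (log2 -0.07 ± 0.15), which overlap. IL2RB, the signalling beta chain, and IL7R had no count in any of the 79 cells. Of 8 tested genes in the receptor list 4 were above 0 and none had an unadjusted p under 0.05. Among 16 tested genes of JAK-STAT5 signalling and its targets the fitted median was 0.0823 with none at that p. The plate medians had the other sign, at -0.072 on P2769, -0.0192 on P2770 and -0.0191 on P2771. STAT3 had 213, 270.2 and 244 against 189.4, 290.4 and 217 CPM. Interleukin-2 itself (IL2) was counted in 1 positive and 2 negative cells, and FOXP3, which marks regulatory T cells, in none.

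Factors that bind IL2RA control elements were not higher in the class that had the transcript. Of 19 tested members 11 were below 0 and the median was -0.227. NFKB1, the p50 subunit gene of NF-kB, was the 1 member with an unadjusted p under 0.05. Of all features 1.14% were lower at that p. NFKB1 had 16.3, 13.7 and 0.703 CPM against 98.9, 24.8 and 9.59 CPM, with 1 cell holding 40.4% of its reads. The most abundant member, ELF1, had overlapping sums of 94.1, 128.5 and 227 against 151.97, 241 and 198.4 CPM. RNA levels do not measure the nuclear entry or modification by which several of these factors act.

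Among genes that PMA turns on in T cells, CD69, an early activation marker, had overlapping sums of 1008, 1006 and 1080.4 CPM in positive and 1389, 860.0 and 711.1 CPM in negative sums, and was counted in 36 cells of each class. Its log2 difference was 0.12 ± 0.22, while DMSO-treated cells had 0, 0 and 0.321 CPM. The 16 tested activation surface markers had a median of 0.0651 and none with an unadjusted p under 0.05. Its sign depends on the plates used, with 0.273 without P2769, -0.293 without P2770 and -0.171 without P2771.

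The 15 tested AP-1 and EGR immediate early genes had a median of 0.71 with 12 above 0, but none at an unadjusted p under 0.05, and the median was 0.108 without P2769. Their most abundant member IER2 had 723.1, 752 and 685 CPM against 447, 674 and 741 CPM. The 11 NF-kB targets had a fitted median of 0.137, but the plate medians were -0.1745 on P2769, -0.3188 on P2770 and -0.1671 on P2771. On each plate 1 target was higher and 3 were lower (13.3% and 13.0% of all features). CFLAR, an inhibitor of death receptor signalling, had 125.6, 99.9 and 161.3 against 32.4, 90.3 and 125.1 CPM. Of 8 ERK feedback genes 1 was higher at an unadjusted p under 0.05 (1.76% of all features). It was the phosphatase DUSP2, with 440.3, 401 and 84.1 CPM against 139.6, 122.8 and 86.5 CPM. DUSP2 was higher on P2769 and P2770 and level on P2771 (log2 1.13 ± 0.40, edgeR, adjusted p = 0.997).

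Of 16 tested protein kinase C and diacylglycerol sensor genes, 1 was higher at an unadjusted p under 0.05 (1.76% of all features). It was PRKCQ, the theta isoform of T cells (log2 1.51). The most abundant, DGKA, had overlapping sums (317, 573 and 554 against 543, 533 and 432 CPM). Among T cell receptor genes, of 32 tested members none had an unadjusted p under 0.05, the median was 0.0798, and TRBC1 had 10379, 6705 and 9092 against 9604, 8299.8 and 8709 CPM. Of 15 tested genes that PMA induces in these lines, chosen with earlier results of these data known, 11 were above 0 with a median of 0.349. Myoglobin (MB), a member with no DMSO count, had 826, 358 and 649.7 CPM against 678, 365 and 414 CPM.

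The S phase list did not move with the G2 and M list. Of 40 tested members 12 were above 0, the median was -0.266, and none was higher on each plate while 7 were lower on each (13.0% of all features). The median was 0.413 on P2769, -0.417 on P2770 and -0.744 on P2771, and it was 0.0767 with equal weight per cell (0.15 for all features), so its sign depends on the weighting. The fit gave -0.608 without P2769, -0.0852 without P2770 and -0.0376 without P2771. The members lower at an unadjusted p under 0.05 (1.14% of all features) were the helicase subunit MCM7 (log2 -0.69), HELLS (-1.41) and CCNE1. CCNE1 was counted in 3 cells. The thymidylate synthase TYMS had 1143, 722.7 and 796 CPM against 521.8, 1115 and 899 CPM, higher in positive cells on P2769 and lower on the others.

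Stress genes were higher on each plate in 9 of 19 cases (47.4%, against 13.3% of all features), with a median of 0.306. The median was 0.591 on P2769, 0.0778 on P2770 and 0.206 on P2771, and the fit without P2769 gave 0.154. HSPA8, the constitutive HSP70 chaperone, had 2792, 2767 and 2306 CPM against 1803, 1752 and 1996 CPM (log2 0.50 ± 0.13), and more with DMSO (3909, 2982 and 2922 CPM). ASNS (log2 0.67) and TRIB3 (1.23), targets of the amino acid response, were the other members at an unadjusted p under 0.05. Of all features 1.76% were higher at that p. Of 13 mitochondrially encoded genes 12 were below 0 (4511 of 9393 features) and 7 were lower on each plate (13.0% of all features), with a median of -0.115. None had an unadjusted p under 0.05 or sums that were apart. Counts of these genes are part of the mitochondrial share above and repeat that measure. Of 17 lymphoid precursor genes 9 were below 0 (4511 of 9393 features), with a fitted median of -0.101. The plate medians were 0.159 on P2769, -0.088 on P2770 and 0.0551 on P2771, and thinning gave -0.00901. TAL1, a T cell leukaemia oncogene picked after its values were seen, had 20.8, 30.1 and 38.7 CPM against 90.7, 70.04 and 64.6 CPM. Its sums were apart, as were those of 4.6% of all features in this direction.

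Markers of other cells were low in both classes. T cell markers had a count for 10 of 11 genes (CD4 was at 0), with summed levels of 11622 to 16301 CPM in positive and 13260.2 to 15634 CPM in negative sums. Of 5 regulatory T cell markers FOXP3, IKZF4 and CTLA4 were at 0, and the list summed to 11.8 to 24.0 CPM in positive and 6.32 to 45.6 CPM in negative sums. B cell markers summed to 46.3 to 144.98 and 41.9 to 92.02 CPM, almost all CD79A, with MS4A1, CD79B, PAX5 and CD22 at 0. Natural killer cell markers reached at most 24.4 CPM, erythroid and megakaryocyte markers 2.81 CPM and epithelial and fibroblast markers 15.5 CPM. Myeloid markers stayed at or below 11.4 CPM except for 1059.6 CPM in the negative sum of P2771, which was S100A9, with CD14, CSF1R and S100A8 at 0.

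The same division of Jurkat cells gave 5 positive and 31 negative cells, so that a positive sum held 1 or 2 cells. DESeq2 called 463 of 12146 features (3.81%), and 3768 of the 12146 had no adjusted p and could not be called. Without P2770 edgeR called 15, all lower. With all 3 plates no gene of 8248 tested passed in edgeR (0.0%, with 1.7% at an unadjusted p under 0.05). The median of all features was -1.09 on the log2 scale, and differences are to be read against it. The G2 and M list had a median of -3.08 with 5 of 45 above 0, so the direction seen in J-Lat A2 cells was not seen in these 5 Jurkat cells. The difference between the lines was tested as an interaction: 0 of 10297 features (0.0%) passed in edgeR, and 545 (5.29%) had an unadjusted p under 0.05. The interaction had a G2 and M median of 4.44 against 1.47 for all features. Of the 10 higher genes 2, and of the 9 lower genes 8, had the same sign in Jurkat cells, where the median of all features was itself below 0.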

How the data were processed

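Single-cell cDNA libraries of 480 wells were analysed. The deposited table holds expected counts (estimated read counts) per gene and well; per the submitters' processing notes Salmon 1.5.1, alevin and GRCh38.p13 were used, with an annotation release not given in the sources used here. Of values above 0, 13.7% were not whole; sums were rounded. No columns of 480 were identical. Kept J-Lat A2 cells with PMA had 64810 to 711749 counts (median 474569), so that a count of 0 allows up to 0.329 to 0.711 CPM in a sum (3 counts).

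The members and gene lists were chosen with earlier results of these data known. Counts were summed per class and plate and tested in R 4.3.3 with edgeR 4.0.16 (TMM, filterByExpr, quasi-likelihood F test, two-sided, plate and class as terms, 2 residual and 4.55 prior degrees of freedom), with Benjamini-Hochberg adjustment over 9393 features and IL2RA left out. Levels were scaled by TMM together with the DMSO sums. Alternatives were DESeq2 1.42.0, limma 3.58.1 on the mean log2(CPM + 1) per cell, thinning, other filters, thresholds and plates left out. The scripts were tested on simulated data. Named were IL2RA, HIVmini, the genes with the largest change among those called (none), filled to 10 in each direction by the lowest unadjusted p among genes with at least 20 CPM, 10 cells and the same direction on each plate, and up to 2 of the most abundant members of each list; others were chosen after their values were seen. A lower gene that this rule names is not reported here. Coordinates are from GENCODE (GRCh38).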

Additional observations from a re-analysis of the deposited data

Results flagged for a closer look

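IL2RA reads appeared in cells that no comparison uses and whose DMSO controls had none. With SAHA, 2 of 68 J-Lat A2 cells of the plates that also held PMA cells were positive (2.941%, 95% Clopper-Pearson interval 0.3582 to 10.22%), with 71 and 14 counts, and 2 of 36 Jurkat cells (5.556%, 0.68 to 18.66%), with 21 and 4 counts. Among 67 J-Lat A2 cells with SAHA on the other plates there were 0. This allows up to 4.478% by 3 divided by the number of cells, and 5.357% by the Clopper-Pearson interval. The intervals include shares near the limits of the DMSO cells, and carry-over from PMA wells of the same plates was not tested.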

How the results depend on the processing

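The count of called genes was 0 under every alternative run except DESeq2, which called 76 higher and 27 lower (lowest adjusted p 2.06e-09). At an unadjusted p under 0.05 the count was 272 in the reported fit, 917 by DESeq2 and 615 by limma, and 222 to 350 when a plate was left out. No pairing across cultures is given by the labels, and the block is the plate: without the replicate block 0 genes were called, 260 had an unadjusted p under 0.05, and the list medians were 1.17 (G2 and M) and -0.125 (lymphoid precursor). The G2 and M median stayed above 0 under every alternative and ran from 0.69 to 1.92 with plates left out. The lymphoid precursor median turned to 0.0665 with equal weight per cell and ran from -0.25 to -0.11 with plates left out. The cause of these changes was not tested. In Jurkat cells DESeq2 called 463, and leaving out plates gave 0 to 15. The mitochondrial difference between class medians, averaged over the 3 plates, was -0.3493 percentage points, and -0.4891 with wells of at least 0.5 of the plate median. Of 20 named features 13 passed the threshold by DESeq2. Because 19 of them were chosen by their p and for having 1 direction on each plate, and adjusted p values lay far above the threshold, their direction and side under the alternatives say nothing about stability. Depth limits the classes themselves: a cell with few IL2RA transcripts can be counted as negative. A class split by a measured transcript, 10 to 17 cells per sum and 3 plates leave 2 residual degrees of freedom.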

Other observations

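Other gene groups also held members whose sums were apart. These were 2 of 14 chemokine receptor and trafficking genes, lower in positive cells (4.6% of all features). Of 19 interferon-stimulated genes 3 were apart and higher (4.99% of all features). Among 14 tested chemokine receptor and trafficking genes 10 were below 0, with a median of -0.431, the lowest of the lists. The glucose transporter SLC2A3 (log2 1.80, in 39 cells) and the lactate transporter SLC16A1 (0.89) were higher at an unadjusted p under 0.05. They were 2 of 19 tested glycolysis genes, and 1.76% of all features were higher at that p. GAPDH had 7381, 7329.6 and 8369 CPM in positive and 6588, 8069 and 8822 CPM in negative sums.

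Among regulators of HIV transcription and silencing, HDAC2, a deacetylase that SAHA inhibits, had 438, 403 and 488 CPM in positive and 839.7, 556 and 612 CPM in negative sums (log2 -0.58 ± 0.18), and HDAC3 had a log2 difference of 0.96. IL16 had 143.8, 186.5 and 171.4 CPM against 278, 254 and 222 CPM. These genes had unadjusted p values under 0.05, as had 2.9% of all features, and did not pass the adjusted test (edgeR, adjusted p = 0.997).

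Within the 40 positive cells the IL2RA level and the summed G2 and M level had a Spearman rho of 0.332, IL2RA and HIVmini 0.125, and IL2RA and the well total 0.0719. The cells share plates and read depth, and these are descriptions.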
